A study of Homo sapiens with 6 samples.

Results

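The kinesin, kinetochore, spindle checkpoint and chromosome condensation genes of MDA-MB-231 cells, a triple-negative breast cancer line with mesenchymal features, are described here. They were chosen with earlier results of these data known, by a rule on gene symbols. It took all kinesins and CENP-named genes, the Ndc80 complex, the BUB and MAD2 checkpoint genes, condensin, and the cyclins, kinases and separation factors of mitosis. The rule found 81 of the 15917 genes in the authors' deposited table, 0.509% of them. The study sequenced total RNA of 6 libraries, 2 from cells with the control hairpin shCTRL, whose genotype is labelled WT, and 2 from cells with each of the *RBMS3* hairpins shRBMS3-B3 and shRBMS3-C3, labelled RBMS3 KD1 and RBMS3 KD2. RBMS3 is an RNA binding protein, and all 6 libraries came from the same line, grown in the same medium. The question of the study, which transcripts depend on *RBMS3*, is not answered here. The authors' own columns of fold change and significance were left out. What was used is the authors' mean normalized count, 1 value per gene pooled over libraries, so that no value has an error, an n or a difference between knockdown and control cells. The legend of the study's plot of this comparison gives 2 replicates of knockdown and 2 of control cells, fewer than the 6 libraries of the series. Which libraries entered the mean is not stated, and their depth is not given in the sources used here.

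Cell division relies on motors of the kinesin family, which walk along microtubules or shorten them, and on the kinetochore, the protein plate that ties each centromere to the spindle. An inner layer of the kinetochore sits on chromatin that carries the histone variant CENP-A, and an outer layer, with the Ndc80 complex at its core, grips microtubules. The spindle checkpoint holds back CDC20, the activator of the anaphase-promoting complex, until every kinetochore is attached. Securin and cyclin B are then destroyed and separase cuts the cohesin that holds sister chromatids together. Transcripts of many of these genes are made late in the cell cycle, and their promoters are known for a short element, CHR, often with CCAAT boxes upstream of it. In unsynchronised cells a bulk level therefore mixes the share of cells in late cycle phases with the amount of RNA per such cell, and these cannot be told apart.

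To show this promoter element, 30 bases around the CHR word nearest to the start are printed for 14 members chosen among those that hold it. They are given on the strand of the gene and with the CHR word in capitals. A CHR word was TTTGAA or TTCGAA on either strand, and TTTGAA of the opposite strand reads TTCAAA. Sequences and starts are those of the RefSeq promoter table on GRCh38, and a position is counted from the first transcribed base, which is 0. All 14 lie in a promoter or at the head of the first exon.
CDC20, checkpoint target, chr1:43358904-43358933, + strand, word at -65: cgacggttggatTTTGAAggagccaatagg
BUB1, checkpoint kinase, chr2:110678045-110678074, - strand, word at 1: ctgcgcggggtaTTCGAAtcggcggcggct
BUB1B, checkpoint protein BubR1, chr15:40161034-40161063, + strand, word at -23: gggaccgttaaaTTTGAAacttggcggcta
MAD2L1, checkpoint protein Mad2, chr4:120066807-120066836, - strand, word at 24: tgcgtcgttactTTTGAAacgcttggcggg
PLK1, mitotic kinase, chr16:23678848-23678877, + strand, word at -29: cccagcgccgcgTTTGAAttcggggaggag
CCNB2, mitotic cyclin, chr15:59105105-59105134, + strand, word at -29: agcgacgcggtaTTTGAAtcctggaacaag
CDK1, mitotic kinase, chr10:60778475-60778504, + strand, word at 9: ctcgcacttggcTTCAAAgctggctcttgg
CENPA, centromeric histone, chr2:26786026-26786055, + strand, word at -18: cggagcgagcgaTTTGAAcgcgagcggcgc
NDC80, microtubule-binding subunit, chr18:2571548-2571577, + strand, word at 3: gagaatttcaaaTTCGAAcggctttggcgg
KIF11, spindle motor, chr10:92593090-92593119, + strand, word at -28: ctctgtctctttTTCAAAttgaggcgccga
KIF23, midzone motor, chr15:69414282-69414311, + strand, word at -55: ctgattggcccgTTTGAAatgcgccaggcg
ESPL1, separase, chr12:53268256-53268285, + strand, word at -31: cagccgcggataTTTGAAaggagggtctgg
SMC4, condensin ATPase, chr3:160399563-160399592, + strand, word at -75: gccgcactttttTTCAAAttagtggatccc
KIF5B, cargo motor of interphase, chr10:32056548-32056577, - strand, word at -140: agtgcagtaaaaTTTGAAtctgcgaccccg
The bases printed for NDC80 also hold a further CHR word, TTCAAA at -3, in lower case just before the capitals. The words of CDC20 and KIF23 stand next to a CCAAT box read on one strand or the other, which is within the printed bases. KIF5B is the only printed gene outside cell division, and its word lies farthest from the start.

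Before the members, the line was checked by markers. Vimentin (*VIM*) had a mean normalized count of 69336 and *AXL* 35388, both above 99% of rows (percentiles 99.9 and 99.7), and *CD44*, *CAV1* and *ANXA1* had 10047, 4947 and 4340. The epithelial and luminal genes *CDH1*, *EPCAM* and *GATA3* had 31.6, 107 and 171, and *ESR1*, *PGR* and *FOXA1* had no row. *RBMS3* itself had a mean normalized count of 272, at percentile 43.3, and whether it fell in the knockdown libraries could not be read from a pooled mean.

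The members were abundant transcripts as a group. Their mean normalized count had a median of 1406, against 364 over all rows, and 69 of 81 (85.2%) lay above the median of all rows, where 50% do by construction. Against protein-coding rows alone, with a median of 526, 64 of 81 did. The table holds mean normalized counts from 26.7 to 859682, and 25 members (30.9%) stood at or above percentile 90. Together the 81 took 0.810% of the summed mean normalized count. The 12 below the median were the kinesins *KIF6*, *KIF7*, *KIF9*, *KIF17*, *KIF27*, *KIF3A* and *KIF16B* and the CENP genes *CENPS*, *CENPH*, *CENPQ*, *CENPP* and *CENPV*. A longer transcript yields more reads, so genes are compared with each other below only per kb, as the mean normalized count divided by the length of the representative transcript in kb. On this scale the members had a median of 348 and all rows 137. Per kb, 66 of 81 lay above the median of all rows and 17 stood at or above percentile 90. *TPX2*, which activates Aurora A on spindle microtubules, was the highest member with 3581 per kb, and *KIF6*, a kinesin found in ciliated cells, was the lowest with 8.66 per kb. By coding length *BIRC5* was the highest and *KIF17* the lowest member, so an order given below holds per kb of transcript, and some orders changed under other lengths.

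**Figure D1:**
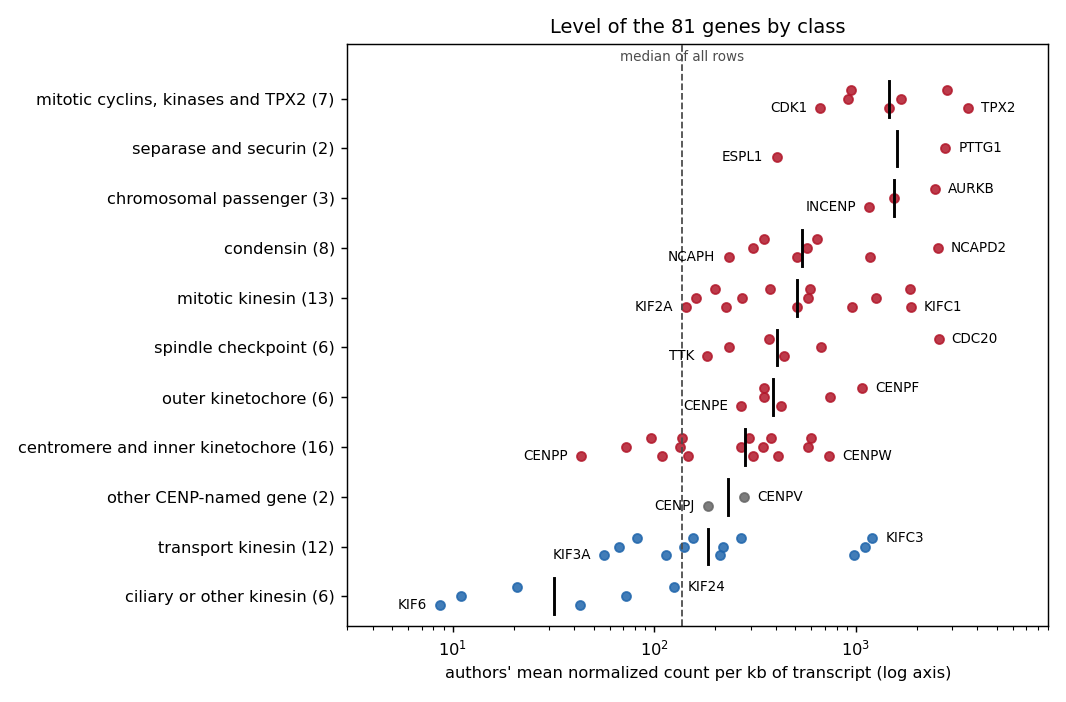
Each point is 1 gene, placed by the authors' mean normalized count per kb of transcript on a log axis, with the classes in rows, their size in brackets and a black bar at each class median. The dashed line is the median of all rows, 137 per kb. The lowest and highest gene of each class are named. All 7 genes of the top row, the mitotic cyclins and kinases with TPX2, lie to the right of the line, while all 6 ciliary or other kinesins lie to its left.

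The cyclins and kinases that drive entry into mitosis, grouped with the Aurora A activator *TPX2*, all lay above the median of all rows. The level per kb of these 7 genes had a median of 1465, the value of *AURKA*, the centrosomal Aurora kinase. *CCNB1*, the B-type cyclin that activates CDK1, had 2837 per kb and its relative *CCNB2* 914 per kb. *CDK1*, the catalytic partner of both cyclins, was the lowest of the class with 664 per kb, though by coding length *CCNB2* was lower, with 1139 against 1408 per kb. *CCNB1* was 4.27 times *CDK1* per kb of transcript and 7.37 times by the union of exons. It was 3.10 times *CCNB2* per kb of transcript and 5.22 times by the longest transcript. *PLK1*, the Polo kinase of centrosomes and kinetochores, had 1677 per kb, and *CCNA2*, the A-type cyclin of S and G2 phase, had 940 per kb. *AURKA* stood at 0.409 of its activator *TPX2*.

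The chromosomal passenger complex, which senses tension at centromeres and later moves to the midzone, was above the median of all rows in all 3 subunits. The kinase *AURKB* had 2470 per kb, survivin (*BIRC5*) 1539 per kb and the scaffold *INCENP* 1162 per kb. *AURKB* was thus 2.13 times *INCENP* per kb of transcript, but 1.28 times by the union of exons. By coding length the order changed, with 9296 per kb for *BIRC5*, 2975 for *AURKB* and 1735 for *INCENP*. Securin (*PTTG1*), the inhibitor and chaperone of separase, had 2777 per kb and separase (*ESPL1*), a long transcript, 403 per kb, a ratio of 6.88 that was 3.35 by the union of exons. By the mean normalized count not divided by length the order was the opposite, with 1986 for *PTTG1* and 2670 for *ESPL1*.

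Checkpoint genes spread over a wide range, and *CDC20* was the highest per kb of transcript. *CDC20*, the protein that the checkpoint holds in check, had 2571 per kb. *BUB1* and *BUB1B*, the kinase and the pseudokinase that gather at unattached kinetochores, had 670 and 438 per kb, and *BUB3*, their common partner, had 371 per kb. *MAD2L1*, whose product binds CDC20, had 233 per kb. *TTK*, the kinase MPS1 that starts the signal, was the lowest with 183 per kb. *CDC20* was 11.0 times *MAD2L1* per kb of transcript, but only 1.43 times per kb of coding sequence, since the *MAD2L1* transcript of 5227 bases is mostly a 3′UTR of 4495 bases. *BUB3*, with a 3′UTR of 6632 bases, had 2903 per kb of coding sequence and *CDC20* 2832, so their order turned with the choice of length. Processed pseudogenes of both had rows of their own, with a mean normalized count of 39.7 for that of *CDC20* and 49.2 for that of *MAD2L1*. How the authors' counting divided reads between gene and copy is not stated.

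At the outer kinetochore, the 4 subunits of the Ndc80 complex lay within a narrow range per kb of transcript, but not per kb of coding sequence. *NDC80* and *NUF2*, which form the microtubule-binding end, had 426 and 348 per kb, and *SPC24* and *SPC25*, which anchor the complex, had 744 and 348 per kb. The highest was 2.14 times the lowest. Per kb of coding sequence they ran from 470 for *NDC80* to 2885 for *SPC24*, and the ratio of *SPC24* to *SPC25* was 4.16 in place of 2.14. The order of *NDC80* and *NUF2* turned with the choice of length, from a ratio of 1.22 per kb of transcript to 0.956 per kb of coding sequence. *CENPF*, a large coiled-coil protein of the outer kinetochore, had 1068 per kb, and *CENPE*, a kinesin-7 motor that carries chromosomes to the spindle equator, had 268 per kb.

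By class median per kb of transcript, inner kinetochore genes were the lowest of the cell division genes, while by coding length the outer kinetochore was lower, with 593 against 614 per kb. Of the 16 inner kinetochore genes, 12 lay above the median of all rows by their mean normalized count, and their level per kb of transcript had a median of 282. *CENPA*, the centromeric histone, had 346 per kb and *CENPC*, which reads it, 72.5 per kb. *CENPW*, a histone-fold partner of CENP-T, was the highest of the class with 737 per kb, and its partner *CENPT* had 294 per kb, a ratio of 2.51 that was 5.21 by the union of exons and 5.01 by coding length. *CENPB*, which binds a DNA box of alpha-satellite repeats, had 580 per kb. Within the subcomplex named for its CENP-O, CENP-P, CENP-Q and CENP-U subunits, *CENPU* had 410, *CENPO* 377, *CENPQ* 96.0 and *CENPP* 43.4 per kb, the lowest value of the class per kb of transcript. By coding length *CENPC* was the lowest of the class, with 175 per kb. *CENPP* carries a 3′UTR of 7380 bases, and shares 3720 exon bases with *IPPK* on the opposite strand. *CENPS*, with 138 per kb, is uncertain, since 1136 of its exon bases are shared with a read-through gene of the same strand that has its own row. Of the other CENP-named genes, *CENPV* had 278 and *CENPJ*, a centriole protein, 184 per kb, and by the union of exons the order was the opposite, with 111 and 161 per kb.

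Condensin, the ring that compacts chromosomes, was above the median of all rows in all 8 subunits. The ATPases common to both condensins, *SMC4* and *SMC2*, had 638 and 310 per kb. In condensin I, *NCAPD2* had 2539, *NCAPG* 573 and *NCAPH* 233 per kb, so that the subunits were 10.9-fold apart by transcript length and 4.61-fold by coding length for *NCAPD2* over *NCAPH*. In condensin II, *NCAPG2* had 1171, *NCAPD3* 511 and *NCAPH2* 348 per kb, a 3.36-fold span. The value of *NCAPH2* is uncertain, since 855 of its exon bases are shared with a non-coding gene of the same strand that has its own row. By the union of exons *NCAPD3* was below *NCAPH2*, with 201 against 261 per kb.

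**Figure D2:**
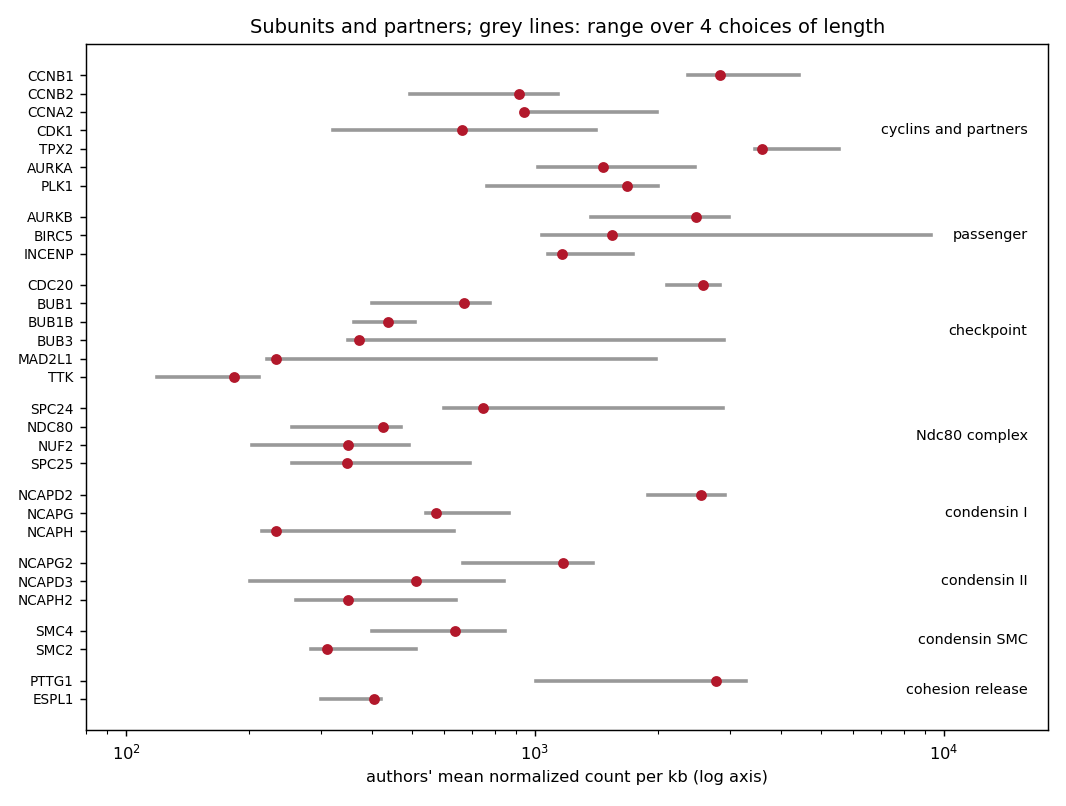
Genes of the same complex or pathway are grouped, and the red point gives the authors' mean normalized count per kb of representative transcript on a log axis. The grey line runs over the values by 4 choices of length (representative transcript, longest transcript, union of exons, coding length). The lines of NDC80, NUF2 and SPC25 overlap, while the line of MAD2L1 spans up to 1980 per kb by coding length.

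Among the kinesins, the class median per kb was higher for those with a role in mitosis than for those of transport or cilia. The ranges of the mitotic and the transport kinesins overlapped. All 13 mitotic kinesins lay above the median of all rows, with a median of 511 per kb. This is the value of *KIF11*, the bipolar motor that pushes spindle poles apart. *KIFC1*, a minus-end motor that clusters centrosomes, was the highest with 1874 per kb, followed by *KIF2C*, the microtubule depolymerase MCAK of centromeres, with 1851 per kb. *KIF20A* and *KIF23*, motors of the central spindle and cytokinesis, had 1262 and 591 per kb, and *KIF22* and *KIF4A*, chromokinesins that bind chromatin, had 950 and 374 per kb. *KIF18A*, which limits chromosome movement, and *KIF14*, a motor of cytokinesis, had 161 and 199 per kb. *KIF2A*, a depolymerase used at spindle poles and in neurons, was the lowest of the class with 144 per kb, and *KIF2C* was 12.9 times *KIF2A* per kb of transcript and 4.74 times per kb of coding sequence. By coding length *KIF18A* was the lowest of the class, with 204 per kb, and *KIF2C* the highest, with 2436 per kb.

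Of the 12 kinesins of transport, 10 lay above the median of all rows by mean normalized count and 8 per kb, with a median of 184 per kb. The 3 highest stood apart from the rest. *KIFC3*, a minus-end motor of epithelial and Golgi traffic, had 1206 per kb (422 by the union of exons), *KIF5B*, the ubiquitous kinesin-1 heavy chain, 1102 per kb, and *KIF1C*, a motor of vesicle and mRNA transport, 973 per kb. The next, *KIF3B*, a kinesin-2 subunit, had 269 per kb. *KIF3A*, the partner of KIF3B in kinesin-2, was the lowest with 56.5 per kb, and *KIF5B* was 19.5 times *KIF3A*. By coding length *KIF1C* was the highest of the class, with 2328 per kb, and *KIF16B* the lowest, with 89.2 per kb. The other heavy chains of kinesin-1, *KIF5A* and *KIF5C*, known from neurons, had no row and were not analysed here. The 6 ciliary or other kinesins ran from *KIF6* to *KIF24*, which acts at the mother centriole, with 126 per kb. *KIF7*, a regulator of Hedgehog signalling at the cilium tip, had 72.6 per kb, and *KIF17* and *KIF9*, motors of cilia, had 11.0 and 20.9 per kb. The median of mitotic kinesins was 2.78 times that of transport kinesins. Over the 61 genes of the cell division classes the median was 438 per kb, against 120 per kb over the 18 transport and ciliary kinesins, a ratio of 3.65. The classes follow known roles, but their division into these larger groups was made after the levels had been seen, and no test was made of it.

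The annotation holds 96 coding genes that fit the symbol rule, and 15 had no row under a fitting symbol. They were *KIF1A*, *KIF2B*, *KIF4B*, *KIF5A*, *KIF5C*, *KIF12*, *KIF19*, *KIF21B*, *KIF25*, *KIF26A*, *KIF26B*, *CENPX* and the *CENPV*-like genes *CENPVL1*, *CENPVL2* and *CENPVL3*. *CENPX*, the histone-fold partner of CENP-S, was listed under its older symbol *STRA13* with 895 per kb and is not counted as a member.

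Partners of the members outside the rule were at similar levels. Of 72 such genes listed by role, 69 had a row, and 59 lay above the median of all rows by mean normalized count. The level per kb of the 69 had a median of 433. The ubiquitin ligase side of the checkpoint ran from *UBE2C*, the E2 enzyme that serves the anaphase-promoting complex, with 3456 per kb to the scaffold subunit *ANAPC1* with 145 per kb. Cohesin genes ran from the cleaved subunit *RAD21* with 1886 per kb to *PDS5B* with 119 per kb. Among genes of mitotic entry, the proliferation marker *MKI67* had 2866 per kb and *LIN9*, a subunit of the DREAM and MuvB complexes, 73.5 per kb. Outer kinetochore genes ran from *ZWINT* with 1624 per kb to the Mis12 subunit *NSL1* with 21.4 per kb. Spindle genes ran from *TACC3*, which crosslinks spindle microtubules, with 3549 per kb to *HMMR* with 69.1 per kb. *KIFAP3*, listed with them but the adaptor of the transport motor kinesin-2, had 61.9 per kb.

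Promoters of the members held the CHR word more often than promoters at large. Of the 81, 67 matched the RefSeq promoter table, which covers 250 bases before to 50 after each start. CHR was found in 36 of 67 (53.7%, 95% Wilson interval 41.9 to 65.1), in 16.4% of all 35116 promoters and in 10.9% of the 10644 promoters of genes with a row. The CCAAT word, on either strand, was in 40 of 67 (59.7%, 47.7 to 70.6), 34.6% and 37.2%. Both occurred together in 27 of 67 members (40.3%, 29.4 to 52.3), 6.38% of all promoters and 4.67% of those of genes with a row. The E2F word (TTTCCCGC, TTTCGCGC, TTTGCCGC or TTTGGCGC, on either strand) was in 6 of 67 (8.96%, 4.17 to 18.2), beside 3.31% and 5.50%. The interval treats genes as independent draws and is a description of a chosen list. A matched word is a match of letters and no binding was measured.

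The CHR words were unevenly spread over the classes. Of the 52 cell division members with a promoter, 34 held CHR, and of the 14 transport and ciliary kinesins 2 did, *KIF5B* and *KIF24*. All 4 checkpoint genes with a promoter (*BUB1*, *BUB1B*, *CDC20* and *MAD2L1*) held it, as did 10 of 13 mitotic kinesins and 6 of 7 condensin genes, but 5 of 13 inner kinetochore genes. Cell division members without the word included *CCNB1*, *AURKB*, *PTTG1*, *CCNA2*, *KIF2C*, *KIF20A* and *CENPE*. *TPX2*, *BIRC5*, *AURKA* and *TTK* matched no promoter, so the word could not be sought in them. The 36 promoters held 42 CHR words, of which 38 began within 100 bases before to 50 after the start and 26 before the start. CCAAT words stood farther upstream. In 12 of 67 members (17.9%) a CCAAT word stood 20 to 40 bases before a CHR word, against 0.738% of all promoters and 0.695% of promoters of genes with a row. Pairs of CCAAT words 20 to 40 bases apart were in 16 of 67 members (23.9%), against 3.80% and 5.86%. These spacings were chosen after the positions had been seen. Among the cell division members, those with CHR had a median of 511 per kb (range 72.5 to 2571) and those without it 359 per kb (43.4 to 2837), so the ranges overlapped almost entirely.

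**Figure D3:**
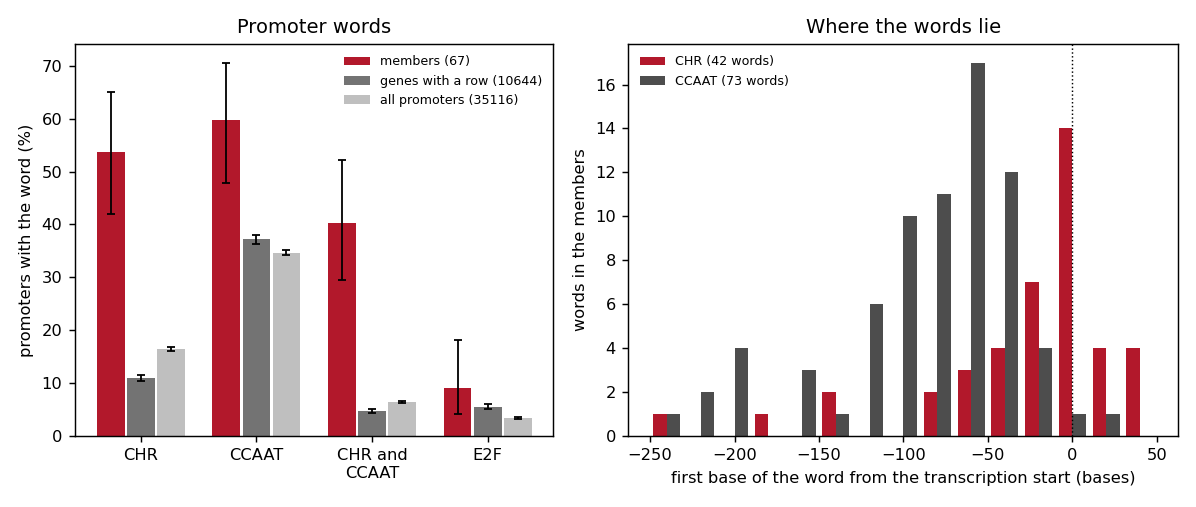
Left, bars give the percent of promoters that hold each word, for members, genes with a row and all promoters, with 95% Wilson intervals and the number of promoters in brackets. CHR with CCAAT was in 40.3% of member promoters and 4.67% of those of genes with a row. Right, the number of words in member promoters in bins of 20 bases by the distance of their first base from the transcription start. CHR words gather around the start and CCAAT words before it.

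Some members begin near a coding neighbour of the opposite strand, and whether such neighbours share a promoter was not tested. A coding gene of the opposite strand began within 1000 bases upstream of 20 of 81 members (24.7%), against 1634 of 12408 coding genes with a row (13.2%). *NDC80* and *METTL4*, an RNA and DNA methyltransferase, began 52 bases apart, *CENPO* and *PTRHD1* 34, *CENPQ* and *MMUT*, the mitochondrial methylmalonyl-CoA mutase, 117, and *CENPK* and *PPWD1* 128. This check was added after the promoters had been seen.

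The study is about 3′UTR elements that RBMS3 may read, and the AUA element as its methods write it, an A, G or T, then A or T, then ATA, A or T, and A, was counted in the 3′UTR of each member. To show its forms, the first match of 4 members with a short 3′UTR or a match near the stop codon is printed in 30 bases of the transcript strand, as DNA from GENCODE release 44 on GRCh38 with the match in capitals.
NDC80, chr18:2616582-2616611, + strand, 3′UTR position 19: atgttgatcatGTATATAtatccatagtga
CDC20, chr1:43363155-43363184, + strand, 3′UTR position 37: ttttatttttcTAATAAAgtcatgtctccc
PTTG1, chr5:160428707-160428736, + strand, 3′UTR position 37: tgtatttgtatTAATAAAgcattctttaac
CCNB1, chr5:69177653-69177682, + strand, 3′UTR position 33: actatatttacAAATAAAattggcaccatg
In the last 3 genes the match contains AATAAA, the word of the polyadenylation signal. Of 450 matches in all members, 168 overlapped AATAAA. Matches that overlap each other were counted separately, in members and in all genes.

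The element was in 73 of 81 members (90.1%, 95% Wilson interval 81.7 to 94.9) and in 84.8% of 12350 genes with a row and a 3′UTR, and at least 3 matches were in 58.0% and 53.1%. Member 3′UTRs were shorter than those of all genes, with medians of 825 and 1378 bases, and somewhat richer in A and U, with medians of 60.7% and 57.9%. Summed matches per kb of summed 3′UTR length were 3.63 in members and 2.79 in all genes. Of the 450 matches in members, 54 were in the ciliary kinesin *KIF27* alone. The 3′UTRs of the cell division genes had a median of 720 bases and those of transport and ciliary kinesins 2190 bases, and the element was in 56 of 61 and 15 of 18 of them. *NDC80* held 3 matches in a 3′UTR of 61 bases, and matches in its printed run of T and A overlap each other. The most matches were in *KIF27* with 54, *KIF3A* with 23, *KIF14* with 21 and *BUB3* with 19. None was found in *CENPB*, *CENPM*, *CENPT*, *KIFC2*, *KIF17*, *KIF13A*, *KIF22* and *PLK1*. Whether these counts go with a response to *RBMS3* knockdown was not analysed here.

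**Figure D4:**
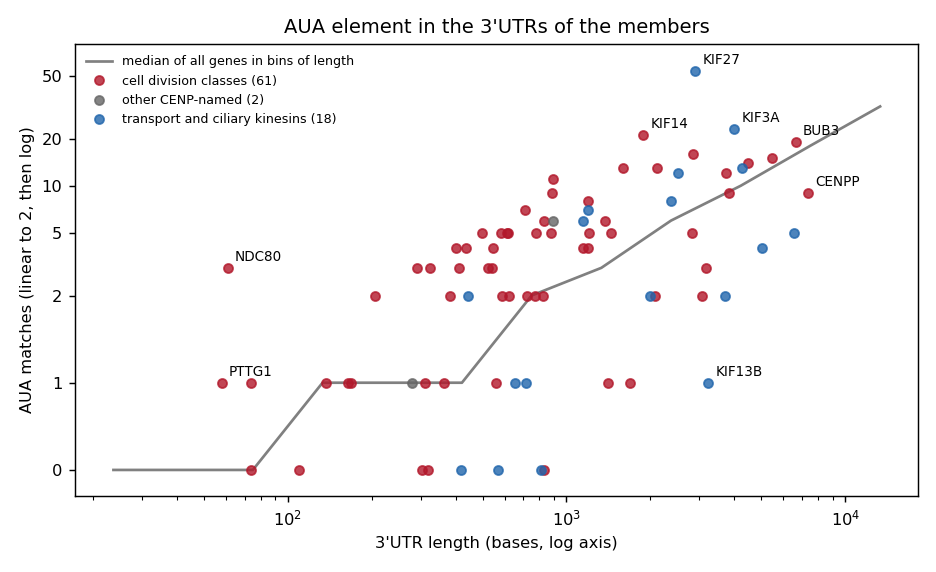
Each point is a member, placed by 3′UTR length in bases (log axis) and by its number of AUA matches (linear to 2, then log), with cell division genes in red, transport and ciliary kinesins in blue and other CENP-named genes in grey. The line joins the median of all genes in bins of length with at least 20 genes. KIF27 stands highest with 54 matches, and NDC80 has 3 in 61 bases, with overlapping matches counted separately.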

How the data were processed

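Total RNA of 6 MDA-MB-231 libraries was made into stranded libraries with ribosomal depletion and sequenced in paired ends. The submitters' processing notes name Salmon, DESeq2 and hg38, while versions, annotation and strand setting are not given in the sources used here. The deposited signal is the authors' mean normalized count per gene, pooled over libraries, at least 26.7 in every row. The other 5 columns hold the authors' log2 fold change, its standard error, the Wald statistic, p-value and adjusted p-value. They are the study's own comparison and were not used. Depth per library is unknown, and no test was possible.

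Identifiers were joined to GENCODE release 44 (15829 matched, 88 did not), using MANE Select or canonical transcripts. Promoters came from the RefSeq table, and that nearest to the GENCODE start was taken, equal to it for 65 of 67 members. Motif counting was tested on simulated sequences. Wilson intervals cover counting error only. Scripts ran in Python 3.11.15 with SciPy 1.17.1, pandas 2.3.3 and numpy 2.4.6, and plots were drawn in matplotlib 3.10.9.

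The members and lists were chosen with earlier results of these data known. Every member could be named, and the highest and lowest of each class always were. Of the members, 36 share exon bases with another gene, 7 of them on the same strand, and their counts may be mixed. Alternatives were other lengths, row sets, strands, windows and match numbers.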

Additional observations from a re-analysis of the deposited data

How the results depend on the processing

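Of 66 alternatives computed for 25 results, 46 kept the value within its interval or 1.5-fold, 19 moved it and 1 reversed it, the ratio of *NDC80* to *NUF2*, which was 1.22 per kb of transcript and 0.956 per kb of coding sequence. Among gene pairs this tally holds only 14. Other orders given above also turned with the choice of length and are not in it, such as *BUB3* and *CDC20* or *CENPV* and *CENPJ*. The median level of members moved from 348 to 694 per kb with coding length. Limited to promoters of genes with a row, the share over promoters moved to 10.9% for CHR, 37.2% for CCAAT and 5.50% for E2F. Read on the forward strand alone, CCAAT was in 29.9% of member promoters and E2F in 2.99%. The share over all promoters on that strand alone is not given here. With the window of 100 bases before to 50 after the start, E2F was in 2.99% of member promoters and 1.68% of all promoters. In that window CHR and CCAAT were each in 50.7% of member promoters, against 7.37% and 21.3% of all promoters. With at least 3 matches the AUA share was 58.0%. Of the 42 ratios of paired genes under other lengths, 11 moved by over 1.5-fold. No paired analysis was possible because only a mean over libraries was used, and for the same reason no library could be left out. Protein features were not run, as no protein sequences were used here.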
